A study of Mus musculus with 6 samples.

Results

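The mitochondrial ribosomal protein genes studied here are the genes whose mouse symbols begin with Mrpl or Mrps followed by a number, taken from probe sets annotated with a single gene. This rule gave 156 probe sets of 76 genes, 47 named for the large subunit and 29 for the small subunit, among 12571 genes tested. The brightest probe set, by its mean over all 6 arrays, stood for each gene, and all 76 lay above the 40th percentile of every array. Mrpl30 and Mrpl53 are represented only by probe sets that a further gene shares, so they were left out. The members were chosen by name and not by their values, although earlier results of these data were known when the family was picked.

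The cells were CD8 T cells sorted from tumours of MCA-205, a transplanted mouse fibrosarcoma line, grown in male C57BL/6 mice with an Eomes-GFP allele, in which green fluorescence reports the T-box factor Eomes. Every mouse, in both groups, received aOX40, an antibody against a costimulatory receptor of T cells, at 250 ug on days 12 and 16, together with aCTLA-4, an antibody against an inhibitory receptor, at 200 ug on days 12, 14 and 16. Treatment began at a tumour size of 50 to 80 mm2, and tumours were taken on day 19. GFP-positive cells form the Eomes+ group and GFP-negative cells the Eomes- group, with 3 arrays each from 3 independent experiments, so both groups share tumour, strain and treatment. The labels do not say whether animals were pooled, or that arrays with the same replicate number come from 1 experiment. Each p-value therefore rests on how far these 6 arrays scatter.

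Mitochondria keep a small genome of their own, which encodes core subunits of the respiratory chain together with the RNAs needed to translate them. The ribosome that translates these messages, the mitoribosome, is assembled from mitochondrial ribosomal RNA and from proteins that are all encoded in the nucleus, made in the cytosol and imported. Some of its proteins descend from those of the bacterial ribosome, and others have no bacterial counterpart. T cells enlarge their mitochondria when they leave quiescence, and the genes of this family are expressed in nearly every cell type.

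The labelled cell type was checked first. The gene whose reporter was sorted, Eomes, was 8.90-fold higher in Eomes+, at 9.54 ± 1.04 log2 (SD, n = 3) against 6.39 ± 0.83, with an unadjusted p = 0.00205 and a limma adjusted p = 1.00 over all genes. The T cell genes Cd3e, Cd8a and Cd8b1 were bright on all 6 arrays, the lowest being Cd8b1 at 10.83 log2 on Eomes+ replicate 3. Array medians over all probe sets lay between 6.35 and 6.42 log2, and precision is limited by having 3 arrays a group. RNA of other cells varied widely between arrays of 1 group. Over 23 genes of tumour cells and fibroblasts, the mean signal of Eomes+ replicates 1, 2 and 3 was 8.73, 10.59 and 11.47 log2, and that of Eomes- replicates 1, 2 and 3 was 8.61, 9.70 and 11.51. Such RNA also leaned by fraction. Of these 23 genes 21 had a higher mean in Eomes+ (median 0.31 log2), though between the arrays of replicate 3 the median was -0.14. Of 18 macrophage and monocyte genes 15 had a higher mean in Eomes+ (median 0.28 log2), though between the arrays of replicate 3 the median was -0.05. Of 12 T cell genes 10 had a lower mean in Eomes+ (median -0.14 log2). In such bulk samples, fewer cells of a type and less RNA per cell cannot be told apart.

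Since the members are nuclear genes that are often described as sharing promoter elements, the letters around their start sites are shown first. The RefSeq promoter table (build GRCm38.p6) held 73 windows of 67 members, each from 250 bases before to 50 bases after a start site. They were searched on both strands for the letters CCGGAAG, a core of ETS family sites such as that of GABPA, for GCGCA followed by any 1 base and GCGC, a core of NRF1 sites, and for GATGGCG, a core of YY1 sites. The ETS letters were found in 25 of 73 member windows (34.2%), against 16.6% of the 12887 windows of all genes tested and 8.86% of all 32851 windows in the table. The NRF1 letters were found in 12 windows (16.4%, against 9.37% and 4.6%), and the YY1 letters in 8 (11%, against 5.98% and 3.49%). A window with any of the 3 made up 53.4% of member windows, 52.2% of respiratory chain windows, 55.3% of cytosolic ribosomal protein windows and 27.9% of windows of all genes tested. These are counts of letters in windows and no test was made. The windows include bases after the start site, where the YY1 letters of Mrpl35, Mrpl37, Mrpl42, Mrps18a, Mrps24 and Mrps27 lie. A match does not show that a factor binds, and the median GC content was 58.7% for member windows and 60.3% for all genes tested.

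The following stretches were chosen because they hold 1 or more of these matches and belong to members described later, or show repeated matches (Mrpl43, Mrpl45) or a match close to the start site (Mrps26). Capitals mark the matched letters, in either orientation. All are written from 5′ to 3′ on the gene's strand.
Mrpl3, chr9:105053208-105053267, plus strand: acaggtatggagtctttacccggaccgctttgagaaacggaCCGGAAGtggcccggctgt
Mrpl17, chr7:105811098-105811157, minus strand: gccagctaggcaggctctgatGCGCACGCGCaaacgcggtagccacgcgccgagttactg
Mrpl43, chr19:45006443-45006512, minus strand: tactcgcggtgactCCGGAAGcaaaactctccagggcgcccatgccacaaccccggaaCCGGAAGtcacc
Mrpl45, chr11:97315586-97315695, plus strand: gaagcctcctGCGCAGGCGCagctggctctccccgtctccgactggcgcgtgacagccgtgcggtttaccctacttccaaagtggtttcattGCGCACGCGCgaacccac
Mrpl57, chr14:57826159-57826218, plus strand: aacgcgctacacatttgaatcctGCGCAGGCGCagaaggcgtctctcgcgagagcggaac
Mrps16, chr14:20393521-20393580, minus strand: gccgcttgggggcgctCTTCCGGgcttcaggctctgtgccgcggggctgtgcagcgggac
Mrps24, chr11:5707652-5707676, minus strand: cgcgccggcccaaGATGGCGtggtc
Mrps26, chr2:130563717-130563754, plus strand: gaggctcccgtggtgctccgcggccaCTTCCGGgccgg
Mrpl43 carries the ETS letters at 2 places and Mrpl45 the NRF1 letters at 2 places within the stretch shown. The Mrps24 stretch lies after the start site, at bases 25 to 49, and the other stretches lie before it. Members with any of the matches differed between the fractions by a median of -0.05 log2 (39 members) and members without one by -0.04 log2 (28 members).

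As a family, the mitochondrial ribosomal protein genes lay close together in the 2 fractions. Of 76 members, 33 had a higher and 43 a lower mean in Eomes+, and the median difference, Eomes+ minus Eomes-, was -0.04 log2. Over all 12571 genes 47.4% had a higher mean, and the median was -0.02 log2. The mean signal of the 76 members was 9.82, 9.93 and 9.98 log2 on Eomes+ replicates 1, 2 and 3 and 9.78, 9.995 and 10.06 on Eomes- replicates 1, 2 and 3. The groups overlapped in this mean, and the lowest array of each fraction was its replicate 1. Members differed from Mrpl19 at -0.62 log2 to Mrpl38 at 0.37 log2, and 61 of the 76 differed by under 0.25 log2 in size.

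No member passed limma's test over all genes (0 of 76 at an adjusted p under 0.05, where 0% of all genes passed). At an unadjusted p under 0.05 there was 1 member, Mrpl19, or 1.32% of members against 3.25% of all genes. On the lower side this was 1 member (2.04% of all genes), and on the higher side 0 members (1.22% of all genes). The count of members passing over all genes was also 0 with the deposited replicate numbers as a block and in every other fit that was run. A missing call does not show equal levels, so the interval of each difference was read as well. For 54 of 76 members (71.1%) limma's 95% interval lay wholly within 1 log2 on either side of 0, that is within a 2-fold change in either direction, against 54.6% of all genes tested. The intervals of the other 22 members reached past 1 log2, the farthest being Mrps6 at -1.36 and Mrpl14 at 1.36. The median member interval reached 0.57 log2 to each side of its estimate, so for a smaller difference the interval would often include 0. These intervals are per gene and not adjusted for the number of genes. The adjusted test is stricter, and Eomes, higher by 3.15 log2, did not pass it. Without both arrays of replicate 2 the count of intervals within 1 log2 was 28 instead of 54.

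**Figure D1:**
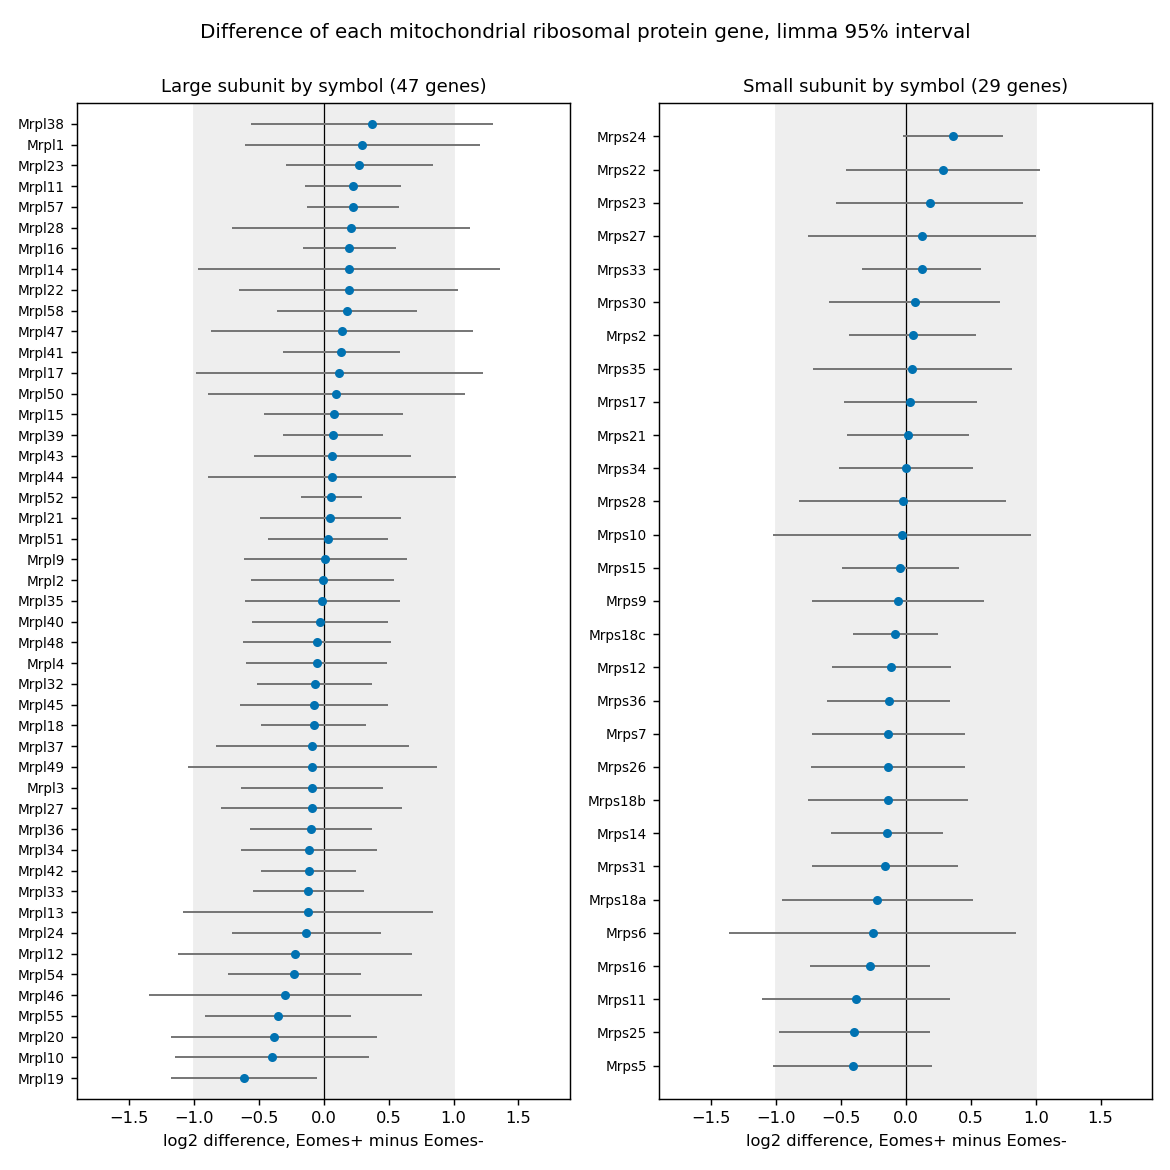
Each point is a gene's log2 difference, Eomes+ minus Eomes- (horizontal axis, log2), with limma's 95% interval as a line, for 47 genes named for the large subunit (left) and 29 for the small subunit (right). The shaded band spans 1 log2 on either side of 0; the intervals of 75 of the 76 genes include 0, Mrpl19 being the exception, and 54 lie wholly inside the band.

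The groups did not overlap for 5 of 76 members, 2 higher and 3 lower in Eomes+. That is 6.58% of members against 7.71% of all genes tested, with 2.63% against 3.05% on the higher side and 3.95% against 4.66% on the lower side. These shares are near those of all genes. Leaving out Eomes+ replicate 1, 2 or 3 gave 12, 14 and 14 such members, and leaving out Eomes- replicate 1, 2 or 3 gave 10, 7 and 12. With fewer arrays, groups separate more readily, and over all genes the shares rose to 18.7%, 14.5%, 17.9%, 14.4%, 11.8% and 22.8% in the same order.

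Among the large-subunit proteins with a bacterial counterpart, Mrpl19 had the largest difference of the family. Its signal was 9.05, 9.42 and 8.74 log2 on the Eomes+ arrays and 9.68, 9.75 and 9.62 on the Eomes- arrays. Every Eomes+ array lay below every Eomes- array, and the Eomes+ arrays were the more spread. The difference was -0.62 log2 (SE 0.23; 95% interval -1.18 to -0.05; limma adjusted p = 1.00, unadjusted p = 0.0359). This probe set is of the kind that can detect transcripts of more than 1 gene. Of the other Mrpl19 probe sets, those kept by the filter differed by -0.75 and -0.61 log2, in the same direction, and one below the filter by 0.54. The unadjusted p was 0.0174 without Eomes+ replicate 2, and between 0.0591 and 0.105 without any other single array.

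Mrpl55, the counterpart of a small bacterial large-subunit protein, also had separate groups. It lay at 8.62, 8.71 and 8.61 log2 on the Eomes+ arrays and 8.84, 8.83 and 9.34 on the Eomes- arrays, a difference of -0.35 log2 (SE 0.23). Eomes- replicate 3 was the highest of the 6 arrays, well above the other two of its group, and without it the difference was -0.19 log2. The stalk of the large subunit, where translation factors dock, is built from the products of Mrpl10, Mrpl11 and Mrpl12. Mrpl10 differed by -0.40 log2 (SE 0.31), with overlapping groups. Mrpl12, which also binds the mitochondrial RNA polymerase, lay at 9.06, 9.99 and 9.77 log2 in Eomes+ and 9.18, 10.09 and 10.22 in Eomes-. The 2 groups overlapped, and the difference of -0.22 log2 had an SE of 0.37. Mrpl11, at the base of the stalk, lay at 11.31, 11.24 and 11.48 log2 against 11.13, 10.94 and 11.30. Each Eomes+ array lay above the Eomes- array of its own number, although the groups overlapped (difference 0.22 log2, SE 0.15). This Mrpl11 probe set is also of the kind that can detect transcripts of more than 1 gene. The other Mrpl11 probe sets differed by -0.11, 0.16 and 0.36 log2. Mrpl3, which lies near the site of peptide bond formation and whose promoter stretch is printed above, differed by -0.09 log2 (SE 0.23) and Mrpl13 by -0.12 log2 (SE 0.40).

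Among large-subunit proteins without a bacterial counterpart, Mrpl57 and Mrpl54 had separate groups. Mrpl57, whose upstream stretch above holds the NRF1 letters, lay at 10.86, 10.94 and 10.71 log2 in Eomes+ and 10.56, 10.70 and 10.58 in Eomes-. The lowest Eomes+ array and the highest Eomes- array were nearly level, and the difference was 0.22 log2 (SE 0.15; 95% interval -0.13 to 0.58). Mrpl54 lay at 8.51, 8.29 and 8.29 log2 against 8.60, 8.51 and 8.66, a difference of -0.23 log2 (SE 0.21). Its groups were also nearly touching. Mrpl58 encodes a peptidyl-tRNA hydrolase that frees stalled mitoribosomes, and it differed by 0.18 log2 (SE 0.22), with its dimmer probe set at -0.60. Mrpl44, a protein with a fold related to RNase III, differed by 0.06 log2 (SE 0.40), and Mrpl37 by -0.09 (SE 0.31). The only Mrpl37 probe set is of the kind that can detect transcripts of more than 1 gene. Mrpl38 had the largest positive difference, 0.37 log2 (SE 0.39), with 8.76, 8.29 and 9.09 log2 against 7.99, 7.98 and 9.06, and its groups overlapped because Eomes- replicate 3 lay above Eomes+ replicates 1 and 2. Leaving out 1 array at a time moved this difference between 0.18 log2 (without Eomes+ replicate 3) and 0.73 log2 (without Eomes- replicate 3). The Mrpl38 probe set is of the kind that can detect transcripts of more than 1 gene. Its other probe sets differed by 0.34 and -0.03 log2. Mrps30 and Mrps18a are named for the small subunit but their proteins sit in the large one. They differed by 0.07 log2 (SE 0.27) and -0.22 log2 (SE 0.31).

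In the small subunit, Mrps24 was the member with separate groups. Mrps24 is the counterpart of a bacterial protein at the site where messenger RNA enters, and its stretch with the YY1 letters is printed above. It lay at 11.61, 11.61 and 11.48 log2 on the Eomes+ arrays and 11.20, 11.44 and 10.96 on the Eomes- arrays. All Eomes+ arrays were the higher ones, and the Eomes- arrays were the more spread. The difference was 0.36 log2 (SE 0.16; 95% interval -0.03 to 0.75; limma adjusted p = 1.00, unadjusted p = 0.0624), and its other probe set differed by 0.14 log2. Both Mrps24 probe sets are of the kind that can detect transcripts of more than 1 gene. Mrps25, which has no bacterial counterpart, lay at 9.26, 9.77 and 9.04 log2 against 9.69, 9.86 and 9.71. Eomes+ replicate 2 reached into the range of the Eomes- arrays, and the difference was -0.40 log2 (SE 0.24). All 3 Mrps25 probe sets differed in the same direction, the others by -0.66 and -0.33 log2. For the brightest, leaving out Eomes+ replicate 2 gave -0.60 log2, and leaving out Eomes+ replicate 3 gave -0.24.

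Other small-subunit members with known roles had overlapping groups. Mrps5, the counterpart of a bacterial protein that affects the accuracy of decoding, differed by -0.41 log2 (SE 0.26), at 8.44, 8.83 and 8.96 log2 against 8.88, 9.42 and 9.17. Its groups overlapped, although within each replicate number the Eomes+ array was the lower one, and without Eomes+ replicate 1 the difference was -0.26 log2. Mrps12, a protein of the decoding centre, lay at 9.50, 9.78 and 9.50 log2 against 9.56, 9.73 and 9.83 (difference -0.11, SE 0.19). The only Mrps12 probe set is of the kind that can detect transcripts of more than 1 gene. Mrps16 and Mrps22 are genes in which human mutations cause mitochondrial disease, and they differed by -0.28 log2 (SE 0.19) and 0.28 log2 (SE 0.31). Mrps34, needed for a stable small subunit, had a difference of 0.00 log2 (SE 0.21; 95% interval -0.51 to 0.51), and Mrps35 one of 0.05 (SE 0.32). The relatives Mrps18b and Mrps18c differed by -0.14 log2 (SE 0.26) and -0.08 log2 (SE 0.14; 95% interval -0.41 to 0.24). None of these differences passed the test, and each interval included 0.

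**Figure D2:**
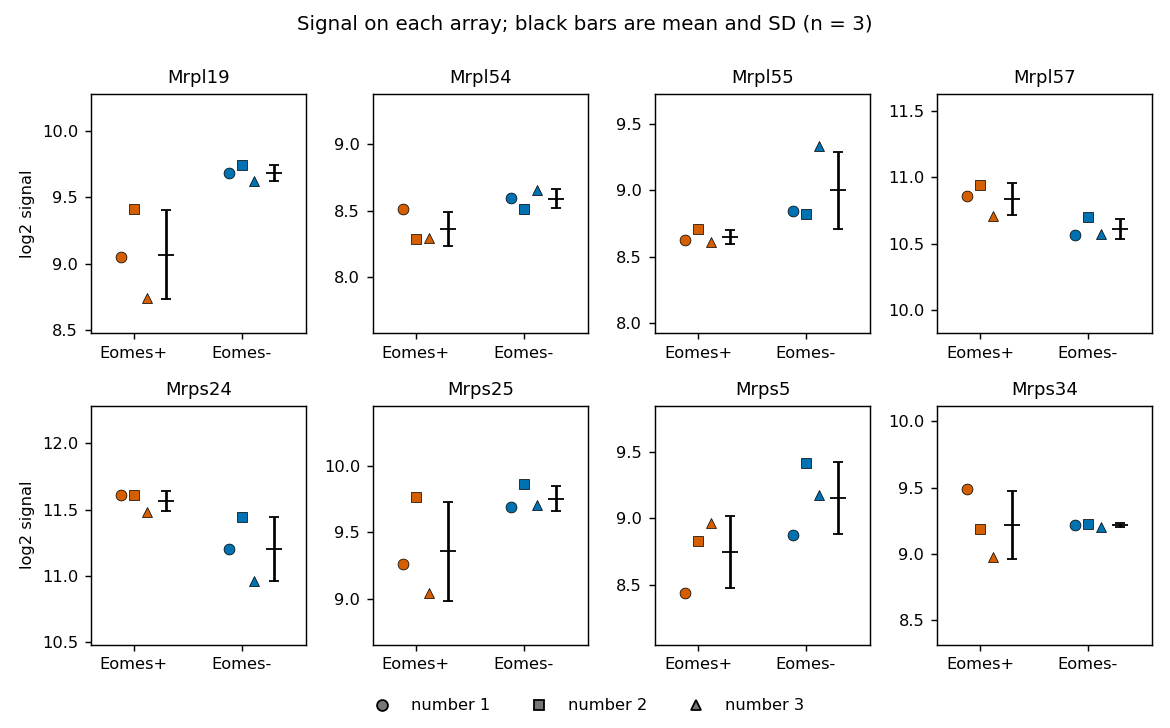
Log2 signal (vertical axis, a span of 1.8 log2 in each panel) of 8 members on each Eomes+ and Eomes- array, with symbols for the replicate number and black bars for the mean and SD (n = 3). Mrpl19, Mrpl54, Mrpl55, Mrpl57 and Mrps24 have groups that do not overlap, Mrps25 and Mrps5 overlap, and Mrps34 has nearly equal means.

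Medians were close to 0 in both subunits. The 47 members named for the large subunit had a median of -0.01 log2, with 22 higher and 25 lower. The 29 named for the small subunit had a median of -0.06 log2, with 11 higher and 18 lower. By the unified ribosomal protein names, which mark proteins shared with bacteria, the 45 members with a bacterial counterpart had a median of -0.06 log2 (16 higher, 29 lower) and the 30 without one 0.04 log2 (17 higher, 13 lower). The remaining member, Mrps36, has since been assigned to a metabolic enzyme complex and differed by -0.13 log2. These splits were not tested against each other, and the pooled SD of the array medians within a fraction was 0.26 log2 for the large subunit and 0.16 for the small subunit.

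By replicate number, 7 members were higher in Eomes+ in all 3 pairs of same-numbered arrays (9.21% of members against 14% of all genes) and 14 were lower in all 3 (18.4% against 17.3%). The 14 were Mrpl12, Mrpl19, Mrpl42, Mrpl54, Mrpl55, Mrps5, Mrps6, Mrps11, Mrps14, Mrps15, Mrps16, Mrps18c, Mrps25 and Mrps31, of which 9 are of the small subunit. The 7 were Mrpl11, Mrpl22, Mrpl28, Mrpl38, Mrpl57, Mrps24 and Mrps33. The median difference over members was -0.003 log2 in number 1, -0.09 in number 2 and -0.06 in number 3, with 38, 31 and 32 of 76 members higher. For the small subunit these medians were -0.01, -0.08 and -0.20 log2. Over the whole family these shares are near or below those of all genes. Lower in all 3 pairs were 31.0% of the small-subunit members (9 of 29) and 10.6% of the large-subunit members (5 of 47), a split seen in these values and not tested. Some of these signs rest on very small differences, such as -0.01 log2 in number 1 for both Mrps15 and Mrps18c. Of the 9, Mrps5, Mrps6, Mrps14 and Mrps15 also have a kept probe set with a difference in the opposite direction.

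Different probe sets of a gene did not always point the same way. Of 36 members with more than 1 probe set kept by the filter, all kept probe sets had the same direction in 15 and not in 21. The 21 were Mrpl1, Mrpl9, Mrpl11, Mrpl13, Mrpl15, Mrpl21, Mrpl27, Mrpl35, Mrpl38, Mrpl41, Mrpl44, Mrpl48, Mrpl50, Mrpl52, Mrpl58, Mrps5, Mrps6, Mrps9, Mrps14, Mrps15 and Mrps23. The widest disagreement of these 21 was in Mrps14. Its brightest probe set differed by -0.14 log2 (10.61, 10.93 and 10.57 against 10.71, 11.05 and 10.78), a dimmer one by 0.89 (8.07, 9.13 and 7.34 against 6.88, 7.97 and 7.02). Most of these directions belong to differences that are small beside the spread between arrays.

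Members also varied over replicate numbers. For 69 of 76 members the range of the 3 number means, each over the Eomes+ and Eomes- array of that number, was larger than the difference between fractions (90.8%, against 85.6% of all genes). A range of 3 means of 2 arrays is wider by construction than a difference of 2 means of 3 arrays, and the share is near that of all genes, so it says nothing particular about these members. The median range was 0.43 log2 for members and 0.54 log2 for all genes, and the median size of the difference between fractions was 0.12 and 0.18 log2. For 8 members the range was over 1 log2, which is 10.5% of members against 23.9% of all genes. The members named in the next paragraph were chosen for this range after their values were seen.

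Mrps6, the counterpart of a small bacterial protein of the small subunit, had the widest range. It lay at 9.997, 10.51 and 11.45 log2 on the Eomes+ arrays numbered 1, 2 and 3 and at 10.35, 10.76 and 11.61 on the Eomes- arrays. Both arrays of number 3 were the highest, both of number 1 the lowest, and the difference between fractions was -0.26 log2 (SE 0.46). The other Mrps6 probe set had the same order of numbers. Mrpl13 lay at 10.60, 11.21 and 11.91 log2 against 10.93, 11.19 and 11.97, Mrpl14 at 7.14, 7.62 and 7.98 against 6.43, 7.59 and 8.13, and Mrps10 at 8.83, 9.26 and 9.79 against 8.73, 9.18 and 10.07. Mrpl28 was likewise highest on both number 3 arrays, at 9.31, 9.49 and 10.28 log2 against 8.97, 9.40 and 10.08. In these 5 genes, picked for their range, the arrays sorted by number without overlap. Over the family this held for 14 of 76 members (18.4%, against 21.2% of all genes). Mrpl17, whose NRF1 letters are shown above, was low on both number 1 arrays only, at 9.39 and 9.19 log2, and between 10.36 and 10.56 on the other 4. Mrpl47 lay at 8.33, 9.38 and 9.88 log2 against 8.73, 9.18 and 9.26. Mrpl46 had the opposite order, with 8.09 and 8.05 log2 on the number 3 arrays and between 8.85 and 9.35 on the other 4.

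The tumour and macrophage markers were highest on the arrays of number 3. All 23 tested tumour and fibroblast genes (of 25 listed) and 17 of 18 tested macrophage and monocyte genes (of 20 listed) had their highest number mean in number 3. For the macrophage list, Eomes+ arrays averaged 8.60, 10.05 and 10.89 log2 and Eomes- arrays 8.34, 9.40 and 10.90. The means of 5 genes of CD4 and regulatory T cells were 7.98, 7.65 and 7.26 log2 against 8.32, 8.57 and 7.69. This list mean was lowest in number 3, but only 2 of the 5 genes were. In all 3 numbers 4 of the 5 were lower in Eomes+ (80%, against 17.3% of all genes), with a median difference of -0.34 log2. For 12 tested T cell genes (of 15 listed), the averages were 12.18, 11.99 and 10.96 log2 against 12.33, 12.33 and 11.08, and all 12 were lowest in number 3. Of the mitochondrial ribosomal protein genes, 34 of 76 had their highest mean in number 3 (44.7%, against 38.5% of all genes) and 21 their lowest (27.6%, against 43.0%). In number 1, 43 of 76 had their lowest mean (56.6%, against 34.6%). This order is not particular to the family. Of 79 respiratory chain genes, 44.3% were highest in number 3, 27.8% lowest in number 3 and 58.2% lowest in number 1. For 46 cytosolic ribosomal protein genes these shares were 8.70%, 69.6% and 17.4%. The part of other cells' RNA in the number pattern of single members was not tested. With the mean of the tumour and macrophage genes as a covariate, the median difference between fractions was -0.05 log2 over the 76 members, and 0 passed over all genes.

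**Figure D3:**
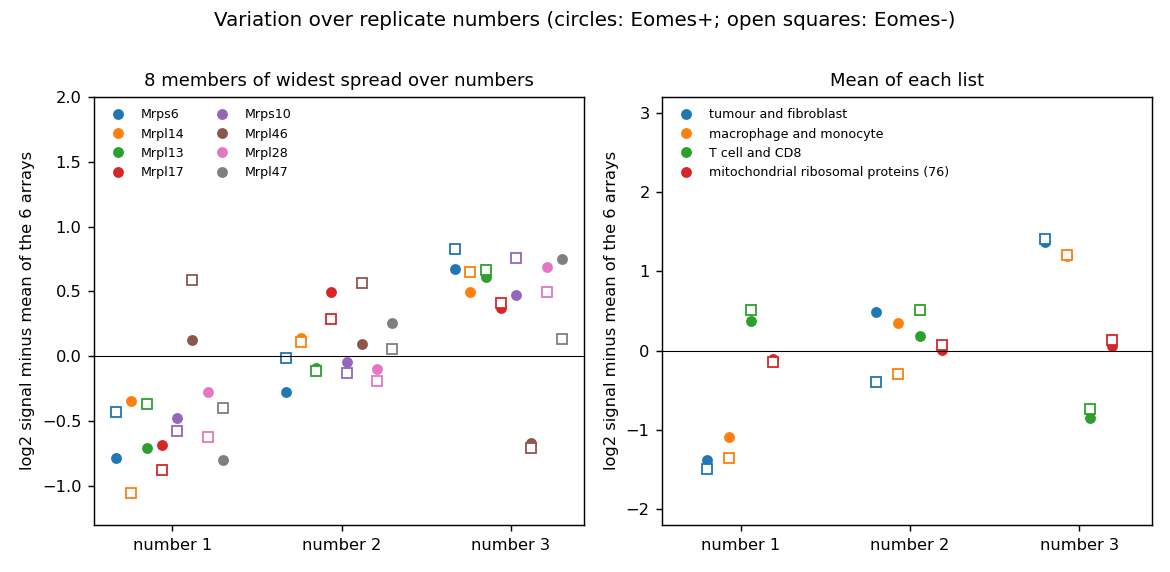
Log2 signal minus the mean of the 6 arrays (vertical axis) for the 8 members whose number means range over more than 1 log2 (left) and for the mean of each marker list and of all 76 members (right), by replicate number, with circles for Eomes+ and open squares for Eomes-. At left, 7 members are lower in number 1 than in number 3, Mrpl46 runs the other way, and the mean of all 76 members moves far less than the marker lists.

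Beside the ribosomal proteins stand the other genes that the mitoribosome needs. Of 5 listed components with other symbols, 4 were tested, 3 higher and 1 lower in Eomes+, with a median of 0.15 log2. Chchd1, a small-subunit protein, had separate groups, at 10.19, 10.48 and 10.32 log2 against 9.90, 10.08 and 10.07 (difference 0.32, SE 0.17; limma adjusted p = 1.00). Ptcd3, a small-subunit protein, differed by 0.17 log2 (SE 0.17) and Gadd45gip1, a large-subunit protein, by 0.14 (SE 0.26). Of 13 tested translation factors 7 were higher and 6 lower (median 0.01 log2). Guf1, a GTPase that acts on the translating mitoribosome, differed by -0.81 log2 (SE 0.38), the release factor gene Mtrf1l by 0.34 (SE 0.23) and the recycling factor gene Gfm2 by -0.33 (SE 0.26). Of 20 tested genes that charge mitochondrial tRNAs 14 were higher and 6 lower (median 0.07 log2). Cars2, the cysteine enzyme, differed by -0.83 log2 (SE 0.35), with 8.43, 7.38 and 7.42 log2 against 8.50, 8.82 and 8.40. Its Eomes+ replicate 1 lay among the Eomes- arrays. Kars, the lysine enzyme of both compartments, differed by -0.44 log2 (SE 0.29), or -0.18 without Eomes- replicate 3. Yars2, the tyrosine enzyme, differed by 0.40 (SE 0.28), or 0.15 without Eomes+ replicate 1.

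Genes that build the mitoribosome and supply its RNA had no call either. Of 26 assembly and rRNA modification genes 14 were higher and 12 lower (median 0.05 log2). Mpv17l2, a membrane protein of mitoribosome assembly, lay at 8.94, 9.19 and 8.36 log2 against 9.25, 9.52 and 9.40, with groups that did not overlap (difference -0.56, SE 0.27, or -0.32 without Eomes+ replicate 3). Nsun4, an rRNA methyltransferase, differed by -0.49 log2 (SE 0.36) and its partner Mterf4 by -0.33 (SE 0.26). Of 15 transcription and RNA processing genes 11 were higher and 4 lower (median 0.13 log2). Mterf1a, a transcription termination factor, differed by -1.21 log2 (SE 0.53), or -0.79 without Eomes+ replicate 2, the transcription factor gene Tfb2m by 0.54 (SE 0.28) with separate groups, and Slirp, an RNA stability factor, by 0.30 (SE 0.20). Of 20 protein import genes 9 were higher and 11 lower (median -0.04 log2), with Timm17b at 0.44 (SE 0.21), Timm13 at -0.41 (SE 0.23) and Tomm40 at -0.44 (SE 0.27). In these 6 lists 0 genes passed limma's test over all genes and 0 had an unadjusted p under 0.05. Groups did not overlap for 3 transcription genes, 1 component with another symbol, 1 tRNA charging gene and 1 import gene on the higher side. On the lower side this held for 2 assembly genes. Over all genes the shares were 3.05% on the higher side and 4.66% on the lower side.

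Among 9 tested nuclear regulators of mitochondrial genes 6 were higher and 3 lower (median 0.05 log2), and 0 passed over all genes. Esrra, a nuclear receptor that acts with the coactivators of mitochondrial biogenesis, lay at 7.76, 7.70 and 7.90 log2 in Eomes+ and 7.38, 7.21 and 6.98 in Eomes-. Its groups did not overlap, and the difference was 0.60 log2 (SE 0.24; limma adjusted p = 1.00, unadjusted p = 0.0406). Groups separated on the higher side for 1 of these 9 genes and for 3.05% of all genes. The factors whose motif letters were counted above differed by -0.22 log2 for Gabpa (SE 0.19), -0.24 for Nrf1 (SE 0.22) and 0.14 for Yy1 (SE 0.20).

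The spread between arrays differed from list to list. The median SD within a fraction was 0.27 log2 for the 76 members, 0.10 for 46 cytosolic ribosomal protein genes, 0.18 for 79 nuclear genes of the respiratory chain and 0.36 for all genes tested. The cytosolic and respiratory chain probe sets were brighter, and whether brightness accounts for the spread was not tested. Other lists had median SDs of 0.28 (translation factors), 0.33 (tRNA synthetases), 0.35 (assembly) and 0.27 log2 (import). Lower values were found for transcription and RNA processing (0.24), nuclear regulators (0.23) and components with other symbols (0.21 log2). Median differences between fractions were -0.04, 0.00 and 0.01 log2 for mitochondrial ribosomal, cytosolic ribosomal and respiratory chain genes, and 0 genes of any of them passed over all genes. The 95% interval lay within 1 log2 for 71.1% of mitochondrial ribosomal protein genes, 87.0% of cytosolic ones and 93.7% of respiratory chain genes. These families were not tested against each other.

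**Figure D4:**
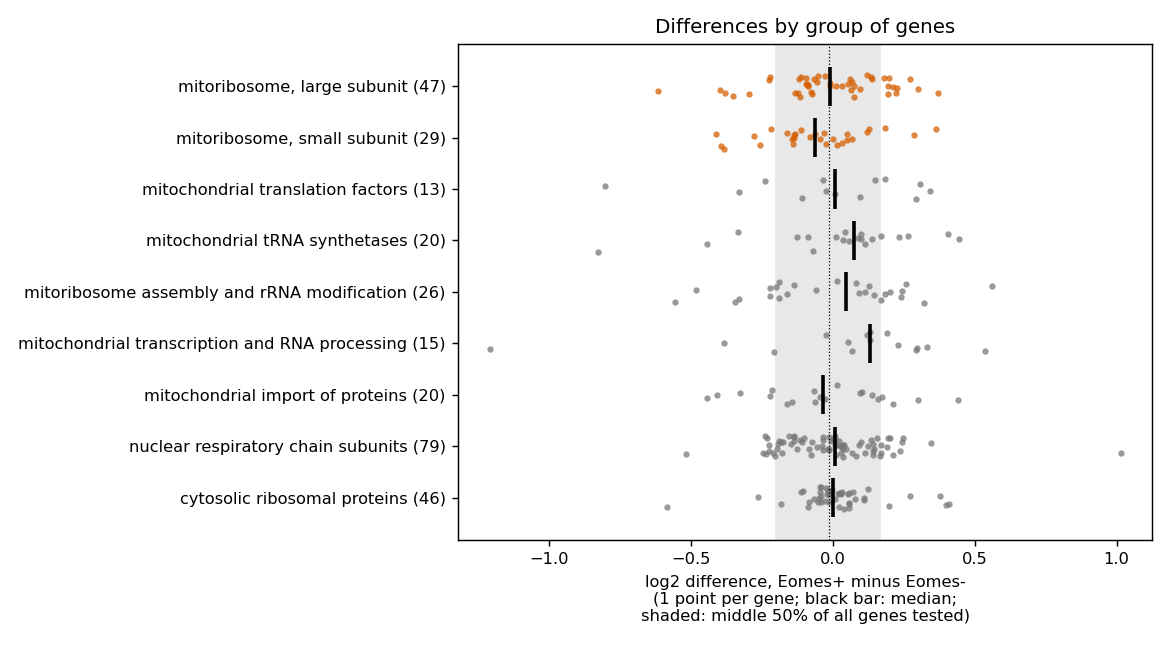
Each point is a gene's log2 difference, Eomes+ minus Eomes- (horizontal axis, log2), in 9 groups of genes with the number tested in brackets; black bars mark group medians, the dotted line the median of all genes (-0.02 log2) and the shaded band their middle 50%. The medians of the groups lie between -0.06 log2 (small subunit) and 0.13 log2 (mitochondrial transcription and RNA processing).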

How the data were processed

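RNA of 3 Eomes+ and 3 Eomes- samples, grouped by their titles, was measured on microarrays. The authors deposited log2 values for 45101 probe sets; the submitters' processing notes list Transcriptome Analysis Console and MAS5 but no version or role for either, and the log2 scale was read from the values (1.68 to 14.95). Of the probe sets, 64 are controls, 34945 have 1 gene symbol in the platform annotation, 932 several and 9160 none listed; 34741 of the 34945 were matched to RefSeq (GRCm38.p6) by gene identifier to update symbols. Probe sets above their array's 40th percentile on at least 3 arrays were kept, and the brightest stood for each gene.

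All 12571 genes were fitted with limma 3.58.1 (R 4.3.3; lmFit, eBayes with an intensity trend, two-sided, Benjamini-Hochberg, threshold 0.05), without a block on replicate number, which no stated method uses. The fit was tested on simulated data. Members and lists were chosen with earlier results of these data known. Members were named if their groups did not overlap (up to 6 of largest difference in each direction), if among the 5 smallest p, for known roles, or for probe sets that differ in direction. Up to 3 genes of smallest p were named per pathway list. Mrpl10, Mrps6, Mrpl14, Mrpl17, Mrps10, Mrpl28, Mrpl38, Mrpl46, Mrpl47, Mrps14 and Yy1 were named after their values were seen. Alternatives were a block, other scalings, pseudocounts of 16 and 64, other filters, probe set choices, variance models, array weights, a marker covariate and samples left out.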

Additional observations from a re-analysis of the deposited data

How the results depend on the processing

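The family's median difference and its count of members passing over all genes (0) moved by less than the spread between arrays in every fit run, the median ranging from -0.0913 to 0.0258 log2 with samples left out. With the replicate block, array weights and the marker covariate, limma called 17, 253 and 8 genes in all instead of 0, none of them a member, and Eomes passed at 3.15, 2.93 and 3.35 log2. Members at an unadjusted p under 0.05 numbered 2 with the replicate block (2.63% of members, 10.2% of all genes), against 1 (1.32%, 3.25%). There were 2 with quantile normalization (2.63%, 3.07%), 11 with array weights (14.5%, 26.8%) and 4 with the covariate (5.26%, 9%). With samples left out there were 0 to 2, where the share of all genes ran from 0.947% to 6.48%. Groups did not overlap for 3 members with probe sets averaged, where the share of all genes was 7.49%, against 5 (7.71% of all genes). With samples left out this held for 7 to 23 members and for 11.8% to 34.3% of all genes. Fewer samples separate more readily. Intervals within 1 log2 numbered 28 to 59 with samples left out, against 54.

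The block was no more than a check. Deviations of arrays with the same number correlated at 0.595, 0.0989 and 0.628. The rule for pairing used a threshold of 0.1, which numbers 1 and 3 passed clearly and number 2 narrowly missed. Not every array was closest to its own number (Eomes- replicate 2 with Eomes+ replicate 1, 0.302). These values do not settle whether arrays of the same number are pairs.

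With array weights, Cars2 (-1.28 log2) and Mterf1a (-2.37 log2) kept their sign and newly passed the threshold over all genes. The following differences changed sign, none of them past that threshold, and the cause was not tested. With array weights the log2 difference was 0.032 for Mrpl13, 0.0081 for Mrpl3, -0.060 for Mrpl44 and -0.16 for Mrpl58. In the same fit it was 0.11 for Mrps10, 0.0057 for Mrps12, -0.028 for Mrps34, -0.38 for Mrps35 and 0.0042 for Nrf1. With probe sets averaged it was 0.0054 for Mrpl13, -0.064 for Mrpl44, -0.21 for Mrpl58, 0.22 for Mrps14 and 0.094 for Gabpa. With the covariate it was -0.019 for Mrpl17 and -0.0016 for Mrps30. With samples left out it ranged from -0.021 to 0.31 for Gadd45gip1, -0.55 to 0.049 for Mrpl12, -0.46 to 0.20 for Mrpl13, -0.28 to 0.57 for Mrpl14, -0.29 to 0.49 for Mrpl17, -0.084 to 0.51 for Mrpl28, -0.22 to 0.13 for Mrpl3, -0.34 to 0.088 for Mrpl37, -0.37 to 0.31 for Mrpl44, -0.20 to 0.57 for Mrpl47, -0.022 to 0.39 for Mrpl58, -0.33 to 0.34 for Mrps10, -0.48 to 0.035 for Mrps18a, -0.14 to 0.56 for Mrps22, -0.11 to 0.33 for Mrps30, -0.13 to 0.12 for Mrps34, -0.24 to 0.37 for Mrps35, -0.66 to 0.093 for Mrps6 and -0.78 to 0.040 for Nsun4. Apart from Eomes, differences of single genes kept their call and sign in 1049 cases, changed sign in 60 and newly passed in 2. Dim probe sets limit precision, though all 76 members lay above the 40th percentile of every array.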
